A study of Homo sapiens with 2 samples.

Results

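The 4 cerebellin genes, CBLN1, CBLN2, CBLN3 and CBLN4, and GRID1, which encodes a delta glutamate receptor, were examined for OTX2 binding. These 5 genes were chosen by name from 19881 protein-coding genes of the autosomes and sex chromosomes. They were not chosen by a value of the peak list, but earlier results of these data were known. OTX2 is a homeodomain transcription factor, and D283 is an established medulloblastoma cell line. The data are ChIP-Seq, the sequencing of DNA recovered with an antibody against a chromatin-bound protein, and comprise 1 library made with an OTX2 antibody and 1 input library made without antibody. Both came from D283 cells grown as tumorspheres, which the labels give as OTX2+ controls. The study calls them OTX2-high, a term it also uses for its controls given a scramble siRNA. No sample with less OTX2 and no replicate entered the peak list, so the values below carry no replicate error and binding was not compared between conditions. Each gene was searched from 50 kb before to 50 kb after its GENCODE record in GRCh38, and a peak was counted when at least 1 bp of it lay in that window. Of the 137412 peaks in the list, 51 were found this way, with 8 at CBLN1, 9 at CBLN3, 34 at GRID1, and 0 at both CBLN2 and CBLN4.

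Cerebellins are small secreted proteins of the C1q superfamily that assemble into multimers in the synaptic cleft. On the presynaptic side they bind neurexins, and on the postsynaptic side they can bind delta glutamate receptors, so that they bridge the membranes and organize the synapse. CBLN1 is released by cerebellar granule cells and is needed for their synapses onto Purkinje cells. CBLN3 is also made by granule cells and depends on CBLN1 for its secretion, whereas CBLN2 and CBLN4 are known mainly from neurons outside the cerebellar granule layer. GRID1 encodes GluD1, which belongs to the ionotropic glutamate receptors by sequence and serves as a synaptic adhesion receptor.

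The depth of the libraries limits which peaks could be called. After removal of duplicates, 61259377 ChIP fragments and 22521186 input fragments remained. The pileup is the scaled coverage by ChIP fragments at the summit, to which each fragment added 0.735, and the fold enrichment relates the pileup to the local input. Over the 137330 peaks of the autosomes and sex chromosomes, the pileup had a median of 39.0 (range 11.03 to 339) and the fold enrichment a median of 6.10. The local input that follows from both values had a median of 5.00 over all peaks and of 4.68 over the 51 peaks examined. It has a floor of 3.99, close to which many of the 51 peaks lay, so these medians are bounded from below.

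Promoter sequences in the build of the peaks were taken from RefSeq (GRCh38.p14), in which 2 of the 5 genes, CBLN2 and CBLN3, had an entry. They are shown because the first lies in a stretch without peaks and the second inside a weak peak. The other sequence is the promoter of SDR39U1, a neighbor of CBLN3, and holds the summit of the second strongest peak in the CBLN3 window. All 3 sequences run 5′ to 3′ on the minus strand, on which these genes lie, and only bases outside annotated exons are printed. Capitals mark a TAATCC, a sequence that OTX2 is known to recognize.
CBLN2, chr18:72544343-72544452: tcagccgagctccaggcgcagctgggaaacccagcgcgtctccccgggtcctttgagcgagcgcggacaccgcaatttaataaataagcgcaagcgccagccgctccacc
CBLN3, chr14:24429669-24429918: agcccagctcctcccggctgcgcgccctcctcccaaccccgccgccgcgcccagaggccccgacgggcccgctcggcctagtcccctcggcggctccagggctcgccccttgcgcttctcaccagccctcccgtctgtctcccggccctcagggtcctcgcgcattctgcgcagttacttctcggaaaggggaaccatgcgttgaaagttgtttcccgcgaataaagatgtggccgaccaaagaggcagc
SDR39U1, chr14:24442906-24443009: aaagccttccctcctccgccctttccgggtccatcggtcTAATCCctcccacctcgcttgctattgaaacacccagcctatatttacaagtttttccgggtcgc

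Both strands of every RefSeq promoter window of 300 bases were read for TAATCC and TAATCT, from 250 before to 50 after the start. At least 1 of the motifs was found in 12.8% of 35116 windows, with TAATCC in 6.36% and TAATCT in 7.17%. Neither motif was found in the windows of CBLN2 and CBLN3, which says only that these letters are not in these windows. The SDR39U1 window held 1 TAATCC, at 24442965 to 24442970 on chromosome 14, and the summit of the peak, at 24442966, fell within these 6 letters. Promoters of CBLN1, CBLN4 and GRID1 were not analysed here.

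CBLN2 and CBLN4 were the genes without a peak. At least 1 peak in the extended record was found for 94.1% of protein-coding genes, and for 3 of the 5 genes examined. The minus-strand record of CBLN2 spans 72536680 to 72638521 of chromosome 18, and its window of 202 kb held 0 peaks. Among the 3583 protein-coding genes with a window at least as wide, 55 (1.54%) had 0 peaks. The stretch without a peak around CBLN2 ran for 298 kb. It ended 74.7 kb beyond the 3′ end of the gene record at a peak with a pileup of 55.15 and a fold enrichment of 11.2. On the other side it ended 122 kb upstream at a peak with a pileup of 58.8 and a fold enrichment of 11.96. The neighboring peaks were therefore both higher than the median of all peaks. The main (canonical) transcript of CBLN2 starts 94179 bp inside the gene record, and this start lay in the same stretch.

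The minus-strand record of CBLN4 spans 55997357 to 56005519 of chromosome 20, and its window of 108 kb also held 0 peaks. The surrounding stretch without a peak was 214 kb long. The nearest peaks lay 113 kb beyond the 3′ end (pileup 19.9, fold enrichment 4.00) and 93.7 kb upstream (pileup 27.9, fold enrichment 5.80), both lower than the median peak. Of the 137306 gaps between neighboring peaks, 99.7% were shorter than the one at CBLN2 and 99.4% were shorter than the one at CBLN4, and the median gap was 8.69 kb. Per chromosome, 39.6 peaks per Mb were called on chromosome 18 and 41.1 on chromosome 20. On chromosome 18 the CBLN2 gap ranked 9 of 3179 by length, and on chromosome 20 the CBLN4 gap ranked 28 of 2634. The lack of a called peak does not show that OTX2 was absent, and how well reads could be mapped in these stretches was not analysed here.

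The minus-strand record of CBLN1 spans 49277917 to 49281838 of chromosome 16. Its window of 104 kb held 8 peaks, or 0.0770 per kb, against 0.0330 per kb over chromosome 16. The TSS window reached from 5 kb before the transcription start site (TSS) to 2 kb after it, where the TSS is the outermost annotated start, and that of CBLN1 held 3 peaks. At least 1 peak in this TSS window was found for 57.2% of protein-coding genes, and for 2 of the 5 genes examined, CBLN1 and CBLN3. At least 3 peaks were found for 6.70% of protein-coding genes.

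Of the 3 peaks in the CBLN1 TSS window, the 2 nearest the TSS were below the median pileup of all peaks. The peak from 49279904 to 49280473 had a summit 1749 bp downstream, in intron 2, with a pileup of 22.8 (31 fragments, exact Poisson 95% interval 21.06 to 44.002) and a fold enrichment of 3.97. The peak from 49282944 to 49283789 was highest 1692 bp upstream, with the same pileup and a fold enrichment of 3.40. The last, from 49286528 to 49287488, was highest 4977 bp upstream, at the edge of the window, with a pileup of 47.1 (64 fragments, interval 49.3 to 81.7) and a fold enrichment of 7.53. This last peak was above that median. These intervals and those below cover counting error only. They do not allow for the summit being the highest point of a peak that passed the cutoff.

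The strongest peaks of CBLN1 lay beyond its 3′ end. The peak from 49272621 to 49273545, with its summit 8.63 kb downstream of the TSS, had a pileup of 128.67 (175 fragments, exact Poisson 95% interval 150.03 to 203) and a fold enrichment of 18.5, above 91.8% of all peaks. The peak from 49262267 to 49262942, at 19.2 kb, had a pileup of 80.9 and a fold enrichment of 16.4, and the peak from 49274283 to 49275086, at 7.27 kb, had a pileup of 51.5 and a fold enrichment of 10.0. A further peak at 30.2 kb reached a pileup of 47.8, and one at 44.3 kb a pileup of 12.5. The interval of the 175 fragments did not overlap that of any peak in the TSS window. That peak was picked as the highest of the CBLN1 window, so this comparison is a description only.

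Other transcripts cover most of these positions. All 5 peaks beyond the 3′ end had their summit inside ENSG00000287469, a long non-coding RNA record on the same strand that runs from 49072543 to 49275579. On this strand it starts at 49275579, 6259 bp downstream of the CBLN1 TSS. The peaks 7.27 and 8.63 kb downstream of the CBLN1 TSS, the latter the strongest, therefore lay closer to this start than to the CBLN1 TSS. The 2 upstream peaks had their summit inside ENSG00000279249, a long non-coding RNA record on the other strand that starts 183 bp from the CBLN1 TSS. The remaining peak, in intron 2, lay within CBLN1 itself. The window held no other protein-coding gene. To which of these records a peak relates was not tested.

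The minus-strand record of CBLN3 spans 24426545 to 24430954 of chromosome 14. Its window of 104 kb held 9 peaks, or 0.0862 per kb, against 0.0542 per kb over chromosome 14. The TSS window held 2 peaks, both among the lowest in the list. The peak from 24429272 to 24430028 had its summit 1011 bp downstream of the start of the gene record, with a pileup of 16.2 (22 fragments, exact Poisson 95% interval 13.8 to 33.3) and 2.45-fold enrichment. Its −log10 q-value was 2.07. It covers the whole CBLN3 sequence printed above, and its summit lies at -275 bp from the start of the main transcript, so that it counts as intronic by the longer transcript alone. The peak from 24431774 to 24432026 was highest 925 bp upstream of the gene record, with a pileup of 19.9 (27 fragments, interval 17.8 to 39.3) and 2.61-fold enrichment. Its −log10 q-value was 2.62. Of all peaks, 1.18% and 2.05% had a lower fold enrichment than these. Both summits also lay in exons of KHNYN, which overlaps CBLN3 on the other strand.

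The strong peaks of the CBLN3 window were distant from CBLN3. The peak from 24388288 to 24389661, with its summit 42.2 kb downstream of the TSS, had a pileup of 181.61 (247 fragments, exact Poisson 95% interval 217 to 280) and a fold enrichment of 36.5, above 99.5% of all peaks. Its summit lay outside every annotated gene record. The peak from 24442299 to 24443401, with its summit 12.01 kb upstream of the TSS, had a pileup of 112.5 (153 fragments, interval 130 to 179) and a fold enrichment of 18.5. This summit was at -61 bp from the start of the SDR39U1 record, within the TAATCC shown above. The next strongest, 7.24 kb downstream, had a pileup of 72.1 and a fold enrichment of 8.12. The other 4 peaks, all downstream of the gene, had pileups of 27.2 to 31.6.

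The CBLN3 window was the only one of the 5 with other protein-coding genes. Of 4 such genes, NYNRIN, KHNYN and SDR39U1 had a peak of this window in their own TSS window, and NFATC4 had none. The peak at NYNRIN had a fold enrichment of 5.49 and lay at -565 bp from its start. KHNYN had 2 such peaks. The stronger, with a fold enrichment of 5.94, lay at -4735 bp from the KHNYN start. The other, from 24429272 to 24430028, was also counted in the CBLN3 TSS window. Some peaks counted for CBLN3 therefore also lay near the starts of these neighbors.

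**Figure D1:**
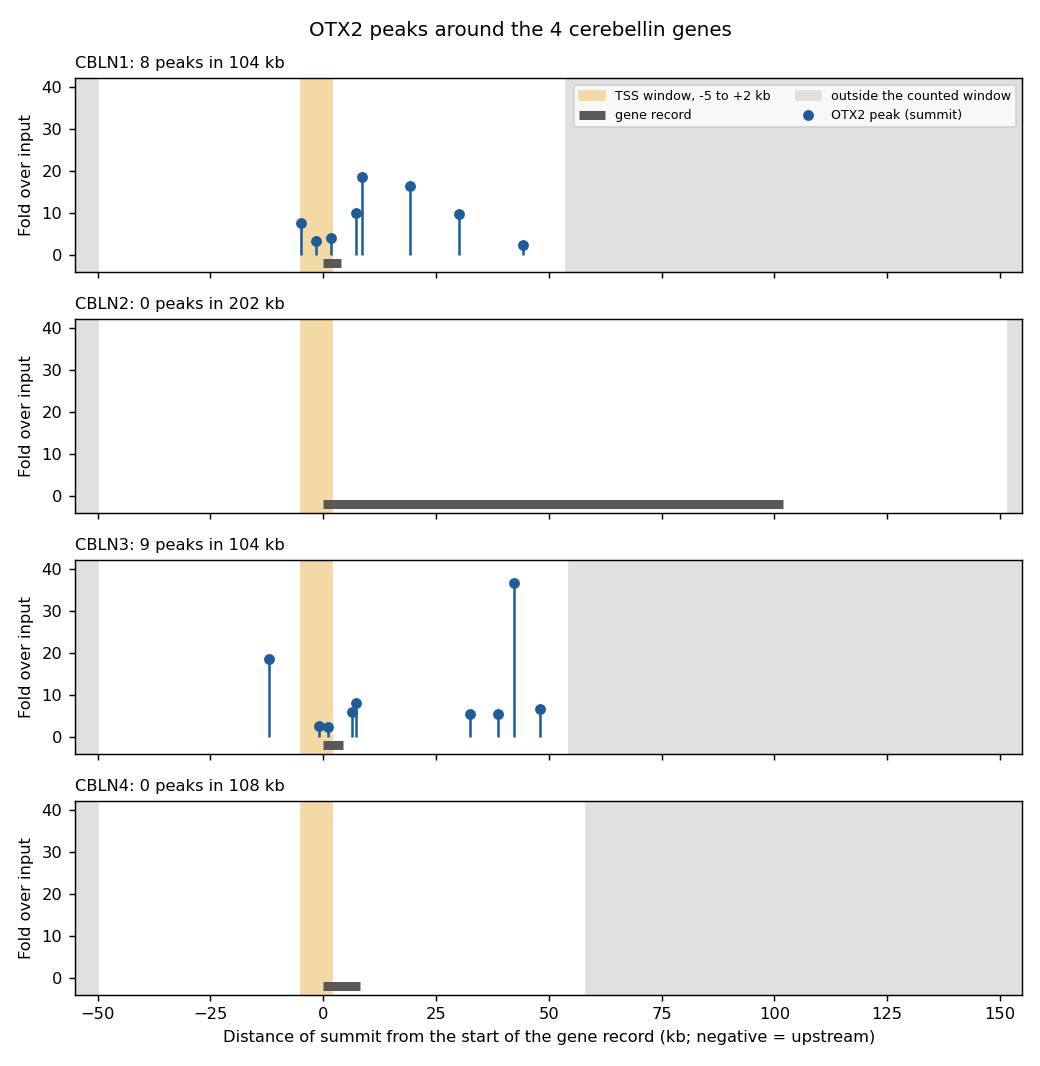
Each panel shows 1 cerebellin gene, with the distance of each summit from the start of the gene record in kb on the x axis and the fold enrichment over input on the y axis. CBLN1 (8 peaks) and CBLN3 (9 peaks) have their highest peaks outside the shaded TSS window, at 18.5 and 36.5, and the panels of CBLN2 and CBLN4 are empty.

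GRID1 had most of its peaks in its introns and none at its TSS. Its minus-strand record spans 85599552 to 86366795 of chromosome 10, or 767 kb. Its window of 867 kb held 34 peaks, or 0.0392 per kb, against 0.0476 per kb over chromosome 10. The record makes up most of this window and held 27 peaks, or 0.0352 per kb, so peaks were not denser inside the gene. There were 0 peaks in the TSS window, as for 43.8% of the 322 protein-coding genes of at least 500 kb. The nearest summits lay 6065 bp downstream and 7618 bp upstream of the TSS. The nearest one was strong, from 86360432 to 86361156 in intron 2, with a pileup of 138.23 (188 fragments, exact Poisson 95% interval 162 to 217) and a fold enrichment of 23.2.

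Inside the GRID1 record, which is nearly all intron, there were 27 peaks, and all 27 had their summit in an intron. An intronic summit was found for 55.4% of protein-coding genes, for 3 of the 5 genes examined (CBLN1, CBLN3 and GRID1), and for 318 of the 322 genes of at least 500 kb, so that its presence in so long a gene is common. Their pileups ran from 15.4 to 223 with a median of 32.4. Of the 15 introns of the main transcript, 4 held a peak. Intron 2 (157 kb) held 10, intron 3 (67.3 kb) held 3, intron 4 (223 kb) held 13 and intron 8 (125 kb) held 1. Introns 2 to 4 together make up 58.3% of the record and held 26 of the 27 peaks, or 0.0581 per kb.

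Peaks were sparse in the 3′ part of the gene, without a steady fall before it. Introns 2, 3 and 4 held 0.0636, 0.0446 and 0.0584 peaks per kb, and intron 8 held 0.00801. The 256 kb next to the TSS held 15 peaks, the middle 256 kb held 11 and the 256 kb at the 3′ end held 1. The last peak, in intron 8, was 584 kb downstream of the TSS, with a pileup of 23.5. From there no peak was called for 254 kb, which includes the final 183 kb of GRID1 and the whole 3′ flank. Of all gaps between peaks, 99.6% were shorter. Introns 9 to 15 lay wholly in this gap.

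The strongest GRID1 peaks were in introns 2 and 3. The peak from 86243842 to 86245211, 122 kb downstream of the TSS in intron 2, had a pileup of 222.79 (303 fragments, exact Poisson 95% interval 270 to 339) and a fold enrichment of 37.8, above 99.6% of all peaks. The peak from 86257513 to 86258808, 109 kb downstream in the same intron, had a pileup of 191.91 (261 fragments, interval 230 to 295) and a fold enrichment of 32.2. Their summits were 13.4 kb apart, and between them lay another peak, 116 kb downstream, with a pileup of 122 and a fold enrichment of 17.4. The next by fold enrichment, from 86172242 to 86172815 in intron 3, 194 kb downstream, had a pileup of 127.94 (174 fragments, interval 149 to 202) and a fold enrichment of 25.8. By fold enrichment, the peak with 37.8 was the highest of the 51, and the one 42.2 kb from CBLN3 came next. The peaks with 32.2 and 25.8 followed.

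A fold enrichment of at least 15, which 13.2% of all peaks had, was reached by 7 of the 27 intronic GRID1 peaks. Of these, 5 were in intron 2, 1 in intron 3 and 1 in intron 4. The peak in intron 4, from 85936040 to 85936549, was 431 kb downstream of the TSS, with a pileup of 121 and a fold enrichment of 20.4. Although intron 4 held the most peaks, their median fold enrichment was 5.21, against 12.5 in intron 2.

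Upstream of GRID1, 7 peaks lay within 33.3 kb of the TSS. Their pileups ran from 19.1 to 77.9 with a median of 33.8. The highest, from 86393589 to 86394680, was 27.1 kb upstream with a fold enrichment of 11.3. One, 33.3 kb upstream, had its summit in an exon of the long non-coding RNA record ENSG00000287475. The GRID1 window held no other protein-coding gene.

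**Figure D2:**
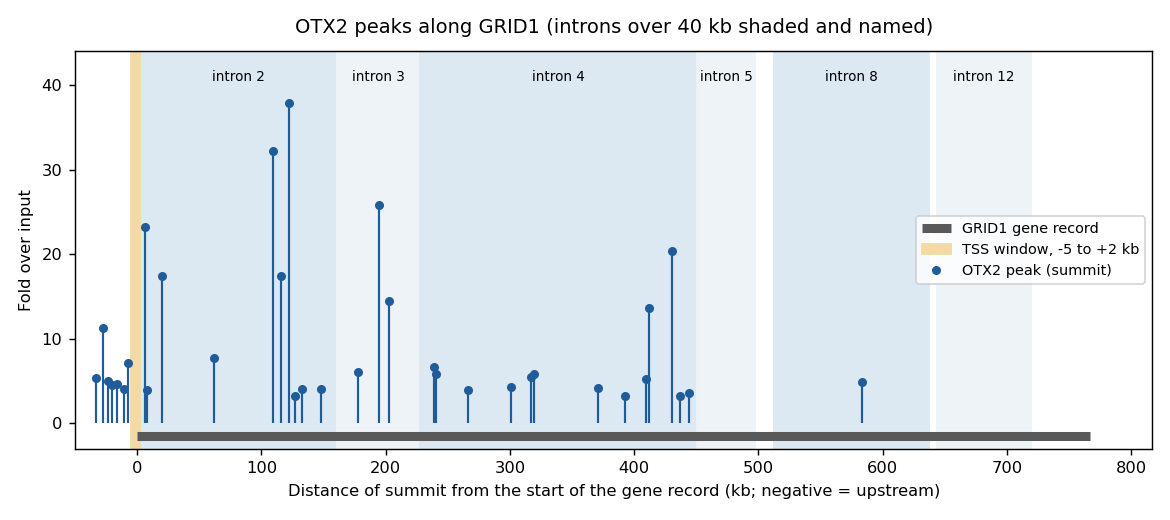
The distance of each GRID1 summit from the start of the gene record in kb is on the x axis and the fold enrichment over input on the y axis, with introns over 40 kb shaded. All but 1 of the 34 peaks lie in the upstream flank and introns 2 to 4, and the highest (37.8) is 122 kb downstream.

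Peak heights varied widely within each gene. CBLN1 peaks had pileups from 12.5 to 129 with a median of 47.4, CBLN3 peaks from 16.2 to 182 with a median of 28.7, and GRID1 peaks from 15.4 to 223 with a median of 33.1. The ranges of the 3 genes overlapped. Over the 51 peaks the median fold enrichment was 5.79, against 6.10 over all peaks, and 31 of 51 (60.8%) had a fold enrichment of at least 5, against 62.9% of all peaks. A fold enrichment of at least 15 was reached by 11 of 51 (21.6%), against 13.2% of all peaks. These shares are given as a description, since peaks of 1 gene share their locus and library. None of the 51 summits lay in an exon of the gene for which it was counted, 29 lay in the gene record outside its exons, 11 upstream and 11 beyond the 3′ end. The 5 peaks in a TSS window had a median fold enrichment of 3.40, and the 15107 peaks in the TSS window of any protein-coding gene had a median of 5.31.

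**Figure D3:**
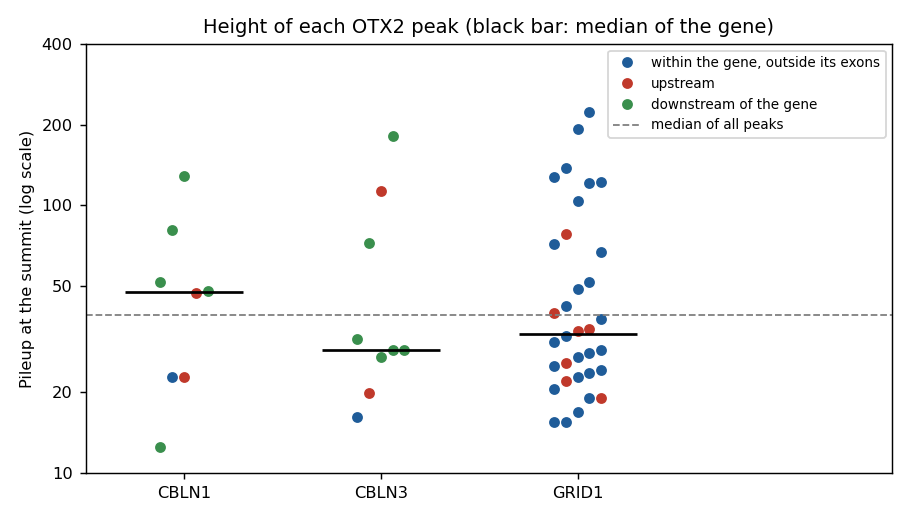
Each point is the pileup at the summit of 1 OTX2 peak, on a log scale, by gene and colored by its position relative to the gene, and black bars are the medians (47.4 for CBLN1, 28.7 for CBLN3 and 33.1 for GRID1). In CBLN1 and CBLN3 the highest point is downstream of the gene, and in GRID1 it is intronic.

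To place the genes among others, peaks per kb were compared over all protein-coding genes, whose median was 0.0512 (quartiles 0.0273 and 0.0789). The median of the 5 genes was 0.0392, with 2 of the 5 above the median of all genes. CBLN3 had a higher density than 79.8% of genes, CBLN1 than 73.5% and GRID1 than 37.5%. For genes of at least 500 kb the median was 0.0488, and GRID1 was above 35.4% of them. CBLN2 and CBLN4 were among the 1175 genes (5.91%) with 0 peaks.

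A list of 10 other genes of the pathway had a median of 0.0507 peaks per kb, and 5 of the 10 were at or above the median of all genes. All 10 had at least 1 peak in the window, and 7 of the 10 had one in the TSS window, against 57.2% of all protein-coding genes. Among the neurexins, the presynaptic partners of cerebellins, NRXN3 had 121 peaks (0.0673 per kb) and NRXN2 had 2 (0.00922 per kb), the lowest density of the list. NRXN3 also had the highest peak of the list by fold enrichment, 45.2.

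The C1q-like genes encode secreted synaptic proteins of the same superfamily as the cerebellins. C1QL3 had 20 peaks in 108 kb, or 0.185 per kb, the highest density of the list and higher than that of 99.5% of protein-coding genes. C1QL4 had 13 (0.124 per kb), C1QL1 had 8 (0.0737 per kb) and C1QL2 had 1 (0.00976 per kb). Like the cerebellins, these short genes therefore differed widely among themselves. Of the C1QL3 peaks, 1 lay in the TSS window and 3 had an intronic summit, and C1QL4 had 0 of either kind. Other genes in these windows were not analysed here.

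Receptors and scaffolds had intermediate values. ADGRB3, a receptor of C1q-like proteins, had 32 peaks (0.0374 per kb). DCC and NEO1, related receptors reported to bind CBLN4, had 51 (0.0394 per kb) and 8 (0.0226 per kb). GRIP1, a scaffold of postsynaptic receptors, had 51 (0.0621 per kb). DCC, like CBLN2, lies on chromosome 18, where its density was close to the 0.0396 per kb of the chromosome.

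**Figure D4:**
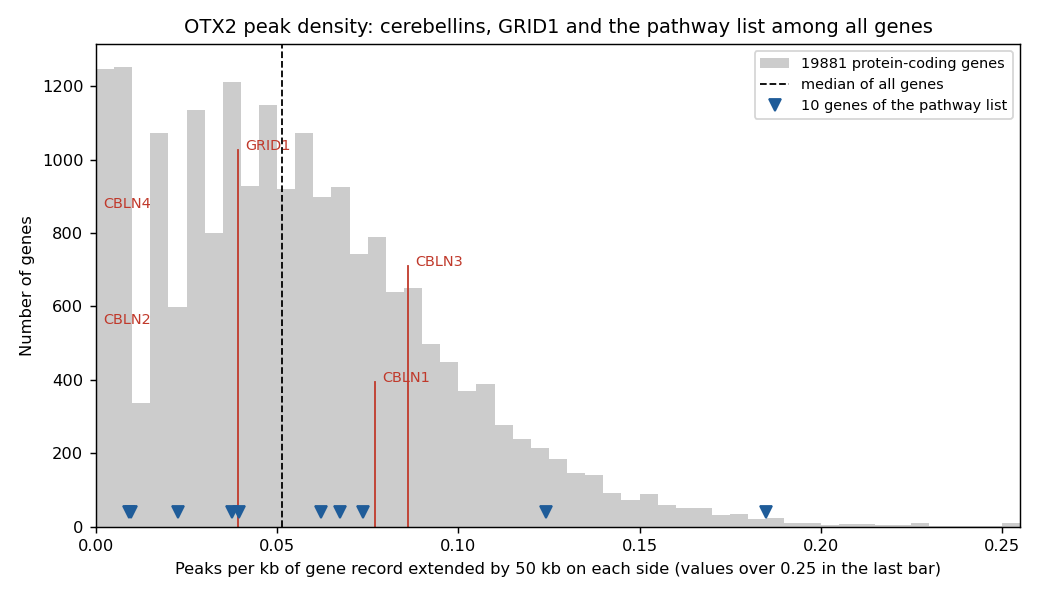
The gray bars count 19881 protein-coding genes by peaks per kb of the record extended by 50 kb on each side, the dashed line is their median (0.0512), red names and lines mark the 5 genes and blue triangles the 10 genes of the pathway list. CBLN1 and CBLN3 are to the right of the median, GRID1 is to the left, and CBLN2 and CBLN4 are at 0, on the axis.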

How the data were processed

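Samples were 1 OTX2 ChIP library and 1 input library of D283 tumorspheres. The authors used bowtie2 2.2.4 to map to GRCh38 and, per the file headers, called peaks against input with MACS2 2.1.0.20140616 at a q-value cutoff of 0.05. The deposited pileup is a signal (coverage of ChIP fragments at the summit, multiplied by 0.735), and its ratio to local input, both raised by 1, is the deposited fold enrichment. This factor equals 2 times the ratio of input to ChIP fragments after duplicate removal, since MACS2 counts both ends of an input fragment in paired-end data. The −log10 q-value was deposited too, and the −log10 p-value was not used. The study states that blacklisted regions were masked.

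Pileups were read as whole fragments of 0.735 each (100% of peaks within 0.01). GRCh38 gene positions came from GENCODE release 44, as recorded for each exon in an annotation placed on GRCh37, and no coordinate was converted. Introns were numbered on the canonical transcript, and an intronic summit lay outside all exons of the gene. Since the genome sequence used is GRCh37, peak sequences were not read. Counting was tested on simulated peaks. Tools were scipy 1.17.1, numpy 2.4.6 and pandas 2.3.3 under Python 3.11.15, and figures were drawn with matplotlib 3.10.9. Alternatives were stricter peaks, other flanks, other TSS windows and starts, and RefSeq records.

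Named were the 5 genes, every peak in their TSS windows, the 3 peaks of highest fold enrichment per gene, neighbors of cerebellins with a peak in their TSS window and a list of pathway genes, of which 10 are reported here. Other genes and peaks were named after their values were seen. The genes and lists were chosen with earlier results of these data known.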

Additional observations from a re-analysis of the deposited data

How the results depend on the processing

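No paired analysis was possible because the ChIP and the input library form a single comparison. The 51 peaks became 31 with a fold enrichment of at least 5 and 29 with the gene records alone, both by construction. The other 5 alternatives gave 37 to 70. CBLN2 and CBLN4 had 0 peaks under every alternative except a flank of 100 kb, which gave 2 and 1. The number of genes with a TSS peak, 2, became 1 when peaks needed a −log10 q-value of 5 or a fold enrichment of 5, and also when the window reached 1 kb each way. CBLN1 was the gene left in the first and second case and CBLN3 in the last. The other 4 alternatives gave 2, including the canonical transcript start, which was chosen after seeing the data. The 29 intronic peaks became 16 with a fold enrichment of at least 5, all in GRID1, and numbered 25 at a −log10 q-value of 5 or more and 29 when any overlap with an intron counted. RefSeq introns were not run, since the RefSeq table used has no exons. Depth limits how low a peak can be called, and the lowest pileup in the list was 11.03.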
